A study of Mus musculus with 24 samples.

Results

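DNA repair and polymerase genes were compared between kidney and testis, and between unirradiated mice and mice kept under low-dose-rate gamma rays. The members are the probes whose gene symbol begins with Rad and a digit, Xrcc, Ercc, Fanc, Msh or Mlh and a digit, Parp or Brca, or names a DNA polymerase from Pola to Polq. Of 46116 probes on the array, 9832 carried a gene symbol, and 33 of these probes, for 29 genes, met the rule. The reference table lists 88 mouse genes of these families, and the other 59 were not analysed here. By role the 29 genes comprise 7 placed under nucleotide excision repair by their symbols (among them Ercc6l, which is named after Ercc6 but is known as a protein of mitotic chromosomes), 4 of recombination, 4 of end joining and strand break repair, 3 translesion or theta polymerase genes, 3 subunits of the replicative polymerases and 3 other ADP-ribosyltransferases. The remaining 5 are 2 of mismatch repair, 2 of the Fanconi pathway and 1 checkpoint clamp subunit. For 4 genes, among them Ercc4, Rad51d and Xrcc4, there were 2 probes each.

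Illumina Mouse-6 bead arrays gave the RNA levels. They read each transcript by a short probe carried on many beads. Per the labels, 12 mice were used, 3 at each condition, and they were killed as soon as exposure to 137Cs gamma rays for 22 h a day over 485 days had ended. The groups were unirradiated controls, a low dose rate of 0.032 μGy/min (21 mGy in total), a middle dose rate of 0.65 μGy/min (420 mGy) and a high dose rate of 13 μGy/min (8000 mGy), with 3 arrays per group in each tissue and 24 arrays in all. Strain, age at death and any other treatment are not given in the sources used here. If the 12 mice cover both tissues, each gave both organs, but the labels do not say which kidney and testis arrays share a mouse. Fits across the tissues therefore treated all arrays as independent and left that pairing out. What this does to their p-values was not tested. Tissue identity was checked with marker genes: 6 of 6 nephron genes tested were lower in testis (5 past the test), and 3 of 3 Leydig cell genes were higher there. Probes above background numbered 8879 to 10985 on the kidney arrays and 12566 to 15806 on the testis arrays. All 3 middle dose rate kidney arrays (10183 to 10985) detected more probes than all 3 kidney controls (8879 to 9846), and the number of arrays limits the precision of every value.

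Cells meet damaged DNA with several repair pathways. Excision repair cuts out altered bases or bulky adducts, mismatch repair corrects copying errors, end joining and recombination rejoin broken chromosomes, and translesion polymerases copy past damage that stops the replicative enzymes. Spermatocytes break their own chromosomes in meiosis and rejoin them by recombination, and spermatogonia divide throughout adult life, whereas most cells of the adult kidney seldom divide. The products of these genes are also controlled after transcription, by modification and by recruitment to damage, so that an mRNA level does not measure repair activity.

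Promoters are shown for 4 members that the tissue comparison turns on. Rad9b, Ercc8 and Rad18 were bright on every testis array and above background on no kidney array, and Pold4 was called higher in kidney, a call that was lost without 1 control testis array. Sequences are RefSeq's (mouse build GRCm38.p6), and end before the first annotated base of the gene, written 5′ to 3′ on the gene's strand. The windows held 250 bases before the transcript start of the table, of which 65 (Rad9b), 27 (Ercc8) and 21 (Rad18) lay inside the gene and are left out. Capitals mark the motifs searched, read on both strands: the CREB and ATF core TGACG, the CCAAT box, the GC box GGGCGG, the TATA form TATAAA, and the E2F forms TTTCGCG and also TTTGGCG.
Rad9b (chr5:122354271-122354455, - strand): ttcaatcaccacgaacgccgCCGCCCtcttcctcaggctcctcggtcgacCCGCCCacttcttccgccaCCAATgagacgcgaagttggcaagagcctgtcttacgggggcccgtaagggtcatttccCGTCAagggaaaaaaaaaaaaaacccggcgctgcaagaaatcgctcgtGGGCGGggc
Ercc8 (chr13:108158488-108158710, + strand): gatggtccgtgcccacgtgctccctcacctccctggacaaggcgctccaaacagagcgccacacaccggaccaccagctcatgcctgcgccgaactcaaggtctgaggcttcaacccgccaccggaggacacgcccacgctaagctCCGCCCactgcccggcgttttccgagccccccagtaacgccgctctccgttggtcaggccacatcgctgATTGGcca
Rad18 (chr6:112696692-112696920, - strand): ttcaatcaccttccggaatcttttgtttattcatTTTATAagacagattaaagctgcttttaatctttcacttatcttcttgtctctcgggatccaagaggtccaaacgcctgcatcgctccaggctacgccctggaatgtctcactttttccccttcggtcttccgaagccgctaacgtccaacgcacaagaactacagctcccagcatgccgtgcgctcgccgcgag
Pold4 (chr19:4231643-4231892, + strand): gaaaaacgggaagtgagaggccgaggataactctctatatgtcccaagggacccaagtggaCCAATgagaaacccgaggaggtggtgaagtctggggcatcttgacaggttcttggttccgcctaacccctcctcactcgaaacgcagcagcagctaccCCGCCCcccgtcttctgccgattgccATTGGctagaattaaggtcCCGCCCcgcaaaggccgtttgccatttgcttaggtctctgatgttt

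In the printed bases Rad9b held 3 copies of GGGCGG, 1 of CCAAT and 1 of TGACG. Ercc8 held 1 GGGCGG and 1 CCAAT, Pold4 held 2 of each, and Rad18 held 1 TATAAA and none of the other motifs. The 3 genes brighter in testis had no motif in common, and the motifs did not set them apart from Pold4. Promoters were found for 24 of the 29 genes. Ercc6l, Parp9, Polb and Rad51d were among those not matched. Over the windows of 250 bases, GGGCGG was found in 16 of 24 member promoters (66.7%) against 42.7% of 17492 promoters of protein-coding genes, and TGACG in 10 of 24 (41.7%) against 20.3%. CCAAT was found in 11 of 24 (45.8%, against 36.3%), TATAAA in 2 (8.3%, against 12.4%), and each of TTTCGCG and TTTGGCG in 1 (4.2%, against 1.0% and 1.5%). The median number of CpG dinucleotides was 20 in member promoters (range 5 to 41) and 10 in all promoters, and the median GC content was 59.6% and 55.2%. These are matches of letters in a window, and GC content was not matched between the sets.

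The families were measured far more widely in testis than in kidney. A probe was taken as above background in kidney when its detection score, the deposited measure of brightness against the negative controls of the same array, exceeded 0.99, and in testis when it exceeded a noise limit of 84.5 to 133.6 intensity units set from the values below 0. In kidney 11 of 33 member probes (33.3%) were above background on at least 3 of 12 arrays, against 23.6% of all probes and 35.0% of probes with a symbol. In testis 24 of 33 (72.7%) were, against 35.4% and 46.3%. Both tissues measured 9 probes, testis alone 15, kidney alone 2 (Parp9 and Pole4) and neither tissue 7. No array of either tissue was above background for Ercc6l, Rad23b, Parp11 or the second probe of Xrcc4, so these have no measured level here. Background was defined differently in the 2 tissues.

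**Figure D1:**
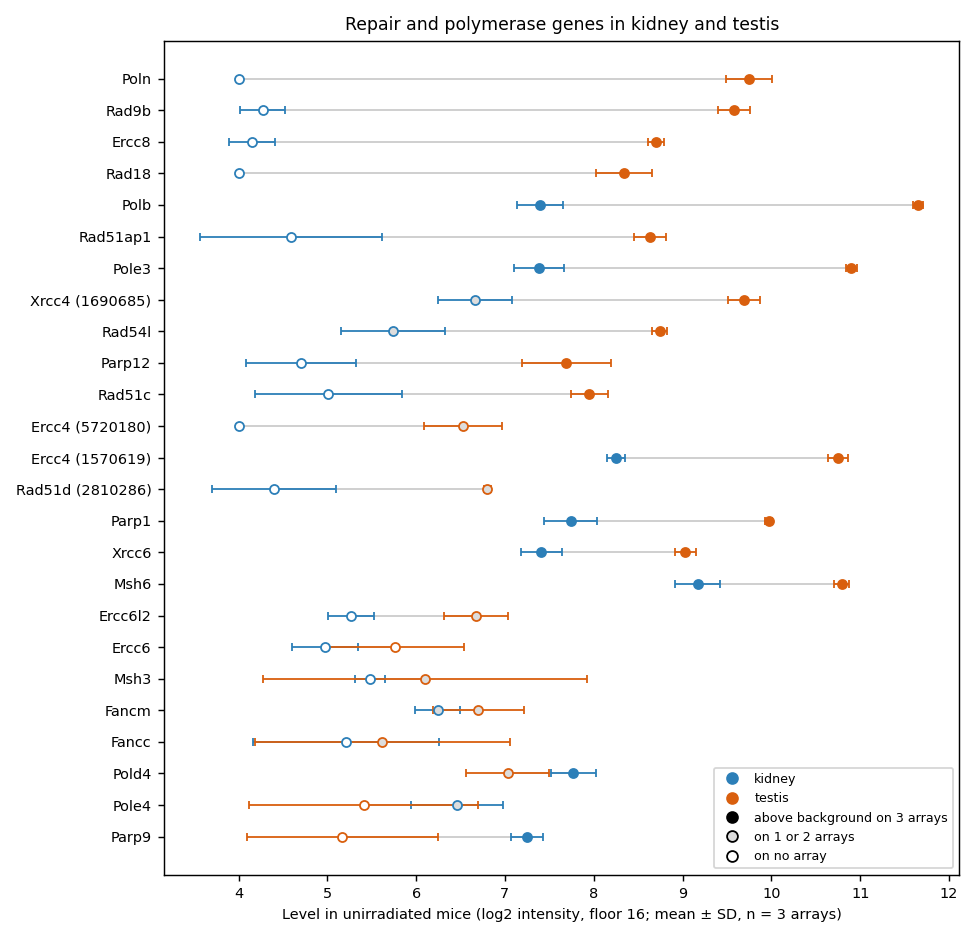
Level of 25 member probes tested between tissues in unirradiated mice, as log2 intensity with a floor of 16 (mean ± SD, n = 3 arrays), kidney in blue and testis in orange, joined by a line. Filled points were above background on 3 arrays, grey points on 1 or 2 and open points on none. Most members lie to the right in testis. Among the open points are those of Poln, Rad9b, Ercc8 and Rad18 in kidney and those of Parp9 and Pole4 in testis, and other members also have open points.

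The first comparison asks how the tissues differ without irradiation. Of 26 member probes tested (25 genes), 21 passed an adjusted p under 0.05 in limma. Tested probes, members or not, were above background on at least 3 arrays of either tissue. By that rule 15 member probes entered through testis alone, 2 through kidney alone and 9 through both. For most members the filter itself thus favoured 1 direction. Polymerases beta and nu, the recombination genes, the excision factors Ercc4 and Ercc8, and the end-joining genes Xrcc4 and Xrcc6 were among 19 probes that were higher in testis, and Parp9 and Pold4 were lower. A tissue difference of this kind was the rule on the array: 81.2% of 18417 probes passed, 60.2% as higher in testis and 21.1% as lower, and 57.5% of probes with a symbol passed as higher. The median log2 difference, testis minus kidney, was +2.45 over the members and +1.24 over all probes. In whole tissue, fewer cells of a type and less RNA per cell cannot be told apart.

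The scale between the tissues is not fixed by the data, because their arrays were normalized apart. When all 24 arrays were given 1 common distribution, the median over all probes went from +1.24 to −0.03 and that over members from +2.45 to +1.35. The split of all called probes then went from 11079 higher and 3883 lower to 6912 higher of 14139 called, and that of members from 19 of 21 higher to 16 of 20. Msh6 and Xrcc6 lost the call under that scaling, with log2 differences of +0.29 (adjusted p = 0.0524) and +0.27 (adjusted p = 0.0794), as did Ercc6l2 at +0.10 (adjusted p = 0.854). Pole4 and Fancm became called as lower in testis, at −2.16 and −0.84. Among probes measured in both tissues, 9 of 9 members passed, 8 of them higher in testis. So did 77.3% of all 8797 such probes, 4563 of them as higher. The median difference there was +2.24 over members and +0.55 over all. The log2 levels of this comparison, and those of testis later, have a floor of 16 (4.00 on the log2 scale). A fold against a group with no array above background is a lower limit, set from the faintest signal above background on each array. The adjusted p beside such a limit belongs to the difference of the floored values, not to the limit. For Poln and Rad18 every kidney group was at the floor with an SD of 0.0. Their p-values therefore do not measure variation in kidney.

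Among translesion genes, Poln encodes polymerase nu, an A-family enzyme that can copy past some cross-linked bases. Its log2 level was 10.03, 9.68 and 9.53 on the control testis arrays and at the floor on all 3 kidney arrays, at least 9.34-fold higher in testis (adjusted p = 1.27e-19). The lowest testis array was thus far above every kidney array. Rad18, the ubiquitin ligase that marks PCNA at stalled forks, was at 7.99, 8.48 and 8.55 in testis and at the floor in kidney, at least 3.52-fold higher (adjusted p = 3.72e-16). Polq, polymerase theta of microhomology-mediated joining, was above background on 1 testis array and no kidney array and was not tested between tissues.

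Rad9b encodes a form of the Rad9 subunit of the checkpoint clamp, a ring loaded on damaged DNA. Its log2 levels were 9.38, 9.64 and 9.72 in control testis and 4.14, 4.11 and 4.56 in control kidney, all of the latter below background. Testis was at least 8.32-fold higher (adjusted p = 1.15e-16).

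All 4 recombination genes were called higher in testis, Rad51d by 1 of its 2 probes. Rad51ap1, which helps a broken end to pair with a homologous strand, was at 8.43, 8.66 and 8.80 in testis and below background on every kidney array, at least 4.31-fold higher. Rad51c, which takes part in strand pairing and in resolving its products, was at 7.92, 8.16 and 7.75 in testis, at least 2.68-fold higher. Rad51d, which also promotes strand pairing, was measured near the noise limit (6.76, 6.80 and 6.84, 2 of 3 arrays above it) and was at least 1.21-fold higher. For Rad54l, the motor protein of homology search, testis arrays read 8.71, 8.84 and 8.69 and kidney arrays 5.33, 6.42 and 5.46, of which 1 was above background. That difference was +3.01 ± 0.24 (SE), or 8.05-fold (adjusted p = 8.45e-10), and the groups did not overlap.

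Of end joining and strand break genes, Polb, the gap-filling polymerase of base excision repair, had the largest fold measured above background on every array of both tissues. Its log2 levels were 11.61, 11.71 and 11.62 in testis and 7.59, 7.48 and 7.09 in kidney, a difference of +4.26 ± 0.16 or 19.2-fold (adjusted p = 5.29e-15). Xrcc4, the scaffold of DNA ligase IV, was at 9.49, 9.84 and 9.74 in testis and 6.67, 6.23 and 7.06 in kidney, where 1 of 3 arrays was above background. It was 8.17-fold higher in testis (adjusted p = 2.58e-11). Parp1, which senses strand breaks and builds poly(ADP-ribose), was at 9.96, 10.02 and 9.94 in testis and 7.40, 7.85 and 7.96 in kidney, or 4.72-fold higher in testis. Xrcc6, the smaller Ku subunit, was 3.07-fold higher on the scale within tissues (9.03 ± 0.12 against 7.41 ± 0.23), a call that depended on the scaling, as given above.

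In nucleotide excision repair, Ercc8, the substrate receptor of transcription-coupled repair, was at 8.66, 8.80 and 8.65 in testis and below background on every kidney array, at least 4.53-fold higher (adjusted p = 4.34e-12). Ercc4, the nuclease subunit that cuts 5′ of the lesion, was at 10.77, 10.85 and 10.64 in testis and 8.35, 8.15 and 8.25 in kidney by probe 1570619, 5.67-fold higher. Its second probe, 5720180, was above background on 1 control testis array and no kidney array and was at least 1.01-fold higher. For Ercc6, a remodeller of transcription-coupled repair, neither tissue was above background on a control array, and Ercc6l2, a related protein, was at least 1.10-fold higher in testis.

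Pole3, a histone-fold subunit of polymerase epsilon, was at 10.92, 10.96 and 10.83 in testis and 7.11, 7.34 and 7.68 in kidney, a difference of +3.53 ± 0.15 or 11.5-fold (adjusted p = 2.58e-14). The opposite direction was called for Pold4. It encodes the smallest subunit of polymerase delta and was at 7.17, 7.41 and 6.50 in testis (2 of 3 arrays above background) and 8.04, 7.72 and 7.55 in kidney, 1.67-fold higher in kidney (adjusted p = 0.00642). Without 1 of the control testis arrays the Pold4 difference was −0.48 and its adjusted p 0.0582. Pole4, the partner of Pole3, was above background on 2 of 3 control kidney arrays and no control testis array, and its difference of −1.05 ± 0.79 did not pass (adjusted p = 0.223).

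Msh6, a subunit that binds mismatched bases, was at 10.70, 10.81 and 10.86 in testis and 9.43, 8.92 and 9.16 in kidney, 3.08-fold higher on the scale within tissues and not called on the common one. Msh3, its counterpart for larger loops, was above background on 2 control testis arrays and no control kidney array (difference +0.62 ± 0.71, adjusted p = 0.424). The Fanconi genes Fancc and Fancm, which act on cross-links between strands, were near background in both tissues and differed by +0.41 ± 0.83 and +0.46 ± 0.31, short of the threshold. Parp12, an interferon-inducible ADP-ribosyltransferase, was at 7.93, 7.11 and 8.03 in testis and below background in kidney, at least 2.25-fold higher. Parp9, an interferon-inducible partner of the ubiquitin ligase Dtx3l, showed the reverse: 7.46, 7.17 and 7.13 in kidney against no control testis array above background, at least 1.52-fold higher in kidney (adjusted p = 0.00776). Without another of the control testis arrays the Parp9 difference was −1.48 and its adjusted p 0.0593.

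Other genes of the pathway were set beside the members from lists, described by counts alone. In base excision and ligation 5 of 20 listed genes were tested and 4 were called higher in testis, among them the ligase Lig3 (+2.92 ± 0.11) and the flap nuclease Fen1 (+1.97 ± 0.16). Of 9 tested genes of damage signalling, 7 were called higher, with Trp53bp1, a reader of broken chromatin, at +3.53 ± 0.13, and 1 lower, the clamp subunit Hus1 at −2.03 ± 0.21. Under the common distribution these 9 gave 2 higher and 3 lower. In replication 7 of 10 were called higher (Mcm7, a helicase subunit, +4.17 ± 0.18) and 1 lower, and with a common distribution 6 and 3. Of 6 tested p53 targets, 2 were called higher and 2 lower (median +0.11), and with a common distribution 1 and 4 (median −1.22). Markers of dividing cells moved with these lists, 3 of 3 called higher in testis (median +2.72), and of the germ cell list only Prm2, a protamine of spermatid chromatin, had a probe named by the rule (+11.90 ± 0.23). The part of cell makeup in the tissue differences was not tested.

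**Figure D2:**
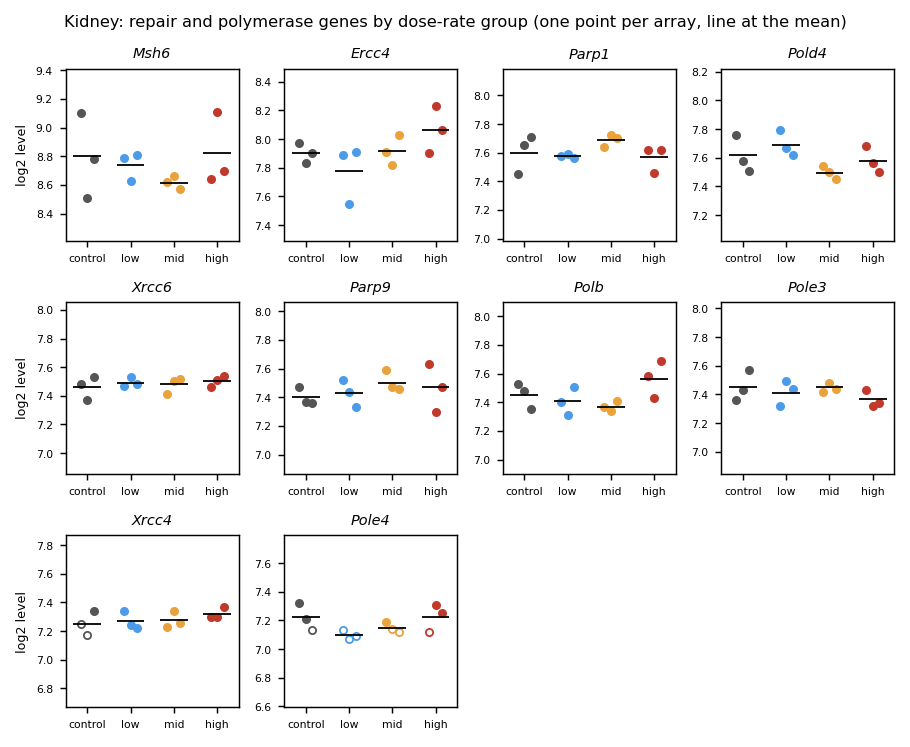
Log2 level of members tested in kidney, 1 panel per gene, with 1 point per array and a line at the mean of 3 arrays, for control, low, middle and high dose rates; open points are below background. Of the members, 10 are shown, and in each the dose rate groups overlap the controls.

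In kidney the question was whether long exposure changed the members at any of the 3 dose rates. No member passed the test at any dose rate: 0 of 11 probes at the low dose rate, where 0.0% of all 10903 probes passed, 0 of 11 at the middle one (0.312% of all) and 0 of 11 at the high one (0.504% of all). At an unadjusted p under 0.05 the members numbered 0, 1 and 1, and all probes 8.33%, 13.6% and 11.9%. The groups did not overlap for 1 member in each comparison, and for 12.3%, 20.8% and 13.8% of all probes. All 3 comparisons share the control arrays. The counts over all probes rested on single arrays: without each array in turn the 34 probes called at the middle dose rate became 1 to 103 and the 55 at the high one 2 to 203. A fit of the compared groups alone called 0 in both, and the replicate number as a block gave 14 and 27.

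At the high dose rate the count of members called went from 0 to 1 without the control array numbered 2, where 1.87% of all probes were called, and to 2 (18.2%) when arrays were weighted by their quality, where 18.9% of all probes were. Nephron markers there had a median difference of −0.08 over 6 genes (2 higher and 4 lower, none called).

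Kidney levels from here on come from a background step (neqc) and are not on the floored scale. Undetected members do not reach 4.00 on it: control means were 6.94 for Rad18 and 6.91 for Poln. Differences of dim probes are narrowed by that step. Among the strand break genes, Polb was at 7.53, 7.48 and 7.35 in controls and 7.58, 7.43 and 7.69 at the high dose rate, +0.11 ± 0.08 (adjusted p = 0.63). On the floored scale its means were 7.39 in controls and 7.65 at the high dose rate. Xrcc4 stood at +0.07 ± 0.06 there and was called only when arrays were weighted (+0.16, adjusted p = 0.0333). Parp1 differed by −0.02, +0.08 and −0.04 at the 3 dose rates, and Xrcc6 by +0.04, +0.02 and +0.04, with overlapping groups in each case. For each of these genes every dose rate group overlapped the controls.

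The other kidney members named here overlapped between each dose rate and control as well. Ercc4 was at 7.97, 7.83 and 7.90 in controls, 7.89, 7.55 and 7.91 at the low dose rate and 7.90, 8.23 and 8.06 at the high one, with differences of −0.12 ± 0.11 and +0.16 ± 0.11. Msh6 varied most, from 8.51 to 9.10 among controls and 8.64 to 9.11 at the high dose rate. Its difference from control was −0.18 ± 0.15 at the middle dose rate. Pold4 differed by +0.07, −0.12 and −0.04, Parp9 by +0.03, +0.10 and +0.06, and Pole3 by −0.04, 0.00 and −0.09. Pole4 was above background on no low dose rate array and 2 control arrays.

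The intervals say what size of change these arrays could have missed. For the 9 members above background on all 12 kidney arrays, the widest 95% interval reached a 1.31-fold change at the low dose rate, 1.43-fold at the middle one and 1.37-fold at the high one. The background step pulls dim probes together, since it took a noise SD of 174.8 to 217.8 intensity units where scores in the middle of the range gave 19.8 to 28.4. Without that step the limits were 1.51, 1.70 and 1.62-fold, and with the narrower noise, an alternative chosen after seeing the data, 1.47, 1.63 and 1.56-fold.

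Between irradiated kidney groups 0 of 11 members passed in any pair, against 0.651% of all probes for middle over low, 0.752% for high over low and 0.0275% for high over middle. For middle minus low the lowest adjusted p belonged to Pold4 (−0.20 ± 0.08, adjusted p = 0.282). A test of any difference among the 4 groups called 0 members (0.578% of all probes).

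**Figure D3:**
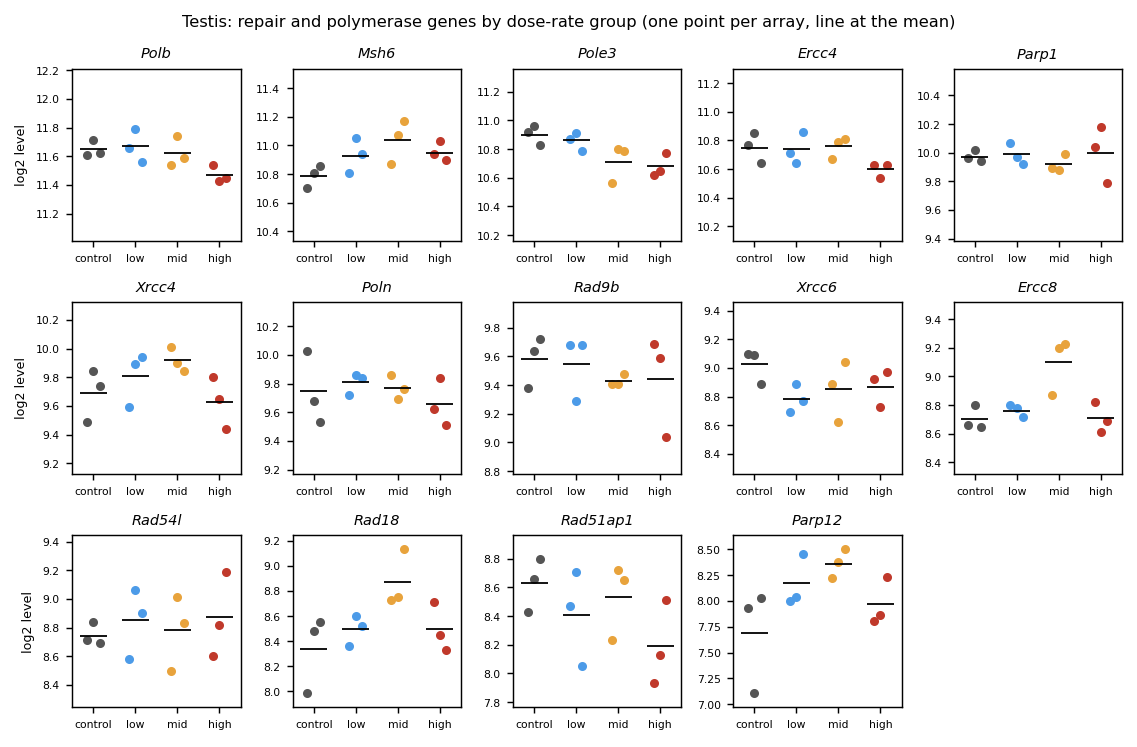
Log2 level of 14 members above background on all 12 testis arrays, 1 panel per gene, with 1 point per array and a line at the mean of 3 arrays, for control, low, middle and high dose rates. Ercc8, Rad18 and Parp12, and also Xrcc4 and Msh6, show middle dose rate arrays above all of their controls.

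In testis the same question gave 0 members called at any dose rate. The counts were 0 of 30 probes (28 genes) at the low dose rate, where 0.0174% of 28816 probes passed, 0 of 30 at the middle one (0.0521%) and 0 of 30 at the high one (0.0174%). At an unadjusted p under 0.05 there were 0, 3 and 3 members, against 4.36%, 7.73% and 9.69% of all probes. The groups did not overlap for 1, 8 and 4 of the 30 members, against 8.93%, 14.5% and 15.9% of all probes. The testis comparisons also share their controls. Without each array in turn the counts over all probes went from 5, 15 and 5 to 0 to 11, 0 to 24 and 0 to 18.

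Ercc8, Rad18 and Parp12 had the lowest unadjusted p at the middle dose rate. Ercc8, of transcription-coupled repair, was at 8.66, 8.80 and 8.65 in controls, 8.80, 8.78 and 8.72 at the low dose rate, 8.87, 9.20 and 9.23 at the middle one and 8.82, 8.61 and 8.69 at the high one. All 3 middle dose rate arrays were above all others, by +0.40 ± 0.14 over control on average (unadjusted p = 0.0178, adjusted p = 0.519). Rad18 was at 7.99, 8.48 and 8.55 in controls and 8.73, 8.75 and 9.13 at the middle dose rate, +0.53 ± 0.19 (adjusted p = 0.56), and at +0.16 at each of the other dose rates. Parp12 was at 7.93, 7.11 and 8.03 in controls and 8.22, 8.38 and 8.50 at the middle dose rate, +0.67 ± 0.26 (adjusted p = 0.578). In controls 1 array of each of Rad18 and Parp12 lay well below the other two, which widens the gap to the irradiated groups.

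At the high dose rate the lower members with the smallest unadjusted p were Pold4 and the recombination genes Rad51c and Rad51ap1. Rad51c was at 7.92, 8.16 and 7.75 in controls and 7.75, 7.46 and 6.98 at the high dose rate, where 2 of 3 arrays were above background, a difference of −0.55 ± 0.23 (unadjusted p = 0.0411, adjusted p = 0.497). Rad51ap1 was at 8.43, 8.66 and 8.80 in controls and 7.93, 8.13 and 8.51 at the high dose rate, −0.44 ± 0.23 (adjusted p = 0.587). For both genes the groups overlapped. Pold4 was above background on 2 of 3 control arrays, on 3 low dose rate arrays (7.09, 7.22 and 7.18) and on no high dose rate array (6.59, 5.97 and 6.24), and its control level was at least 1.08-fold above that of the high dose rate (adjusted p = 0.451). The noise limit moved with the group, at 93.0 to 109.4 intensity units on control arrays and 110.4 to 133.6 on high dose rate arrays, and its part in these differences was not tested. Rad54l differed by +0.12 ± 0.20 and Rad51d by +0.05 ± 0.50 (probe 2810286). The second Rad51d probe, 3190008, was at a mean of 6.46 in controls and 6.03 at the high dose rate, with no array of either group above background.

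The bright testis members varied little. Polb was at 11.61, 11.71 and 11.62 in controls and 11.54, 11.43 and 11.45 at the high dose rate, −0.17 ± 0.12 (adjusted p = 0.702). Pole3 was at 10.92, 10.96 and 10.83 in controls and 10.62, 10.65 and 10.77 at the high dose rate, −0.22 ± 0.12 (adjusted p = 0.606). In both the high dose rate arrays lay below the controls, as did those of Ercc4 (−0.15 ± 0.12), while those of Msh6 lay above, with 10.94, 11.03 and 10.90 against 10.70, 10.81 and 10.86 (+0.16 ± 0.13, adjusted p = 0.752). Xrcc6 was the member whose low dose rate arrays (8.69, 8.89 and 8.77) were all below its controls (9.10, 9.09 and 8.89, tied at the edge only by rounding), at −0.24 ± 0.15 (adjusted p = 1.00).

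Poln and Rad9b, the members most distinct between tissues, were at −0.09 ± 0.16 and −0.14 ± 0.20 at the high dose rate. Parp1 was at 9.96, 10.02 and 9.94 in controls and 10.04, 10.18 and 9.79 at the high dose rate. Neither the clamp gene nor the strand break sensor separated irradiated from control arrays. Near the noise limit, Fancc was at +1.21 ± 0.95 and Polq at −0.87 ± 0.80 at the low dose rate, Ercc6 at +0.58, +0.52 and +0.57 over the 3 dose rates, and Rad51d (probe 2810286) at −0.72 ± 0.50 at the middle one. Rad23b and Parp11, at +1.39 ± 0.58 and −1.14 ± 0.66 at the high dose rate, were above background on no array and have no fold.

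For the 15 members above background on all 12 testis arrays the widest 95% interval reached 2.07, 2.37 and 1.94-fold at the low, middle and high dose rates. For the other 15 it reached 10.2, 7.70 and 7.05-fold, so those values bear on large changes alone. Between irradiated testis groups no member passed in any pair, with backgrounds of 0.0694% for middle over low, 0.0243% for high over low and 0.0972% for high over middle. Pold4 was lowest in adjusted p for high minus low (−0.90 ± 0.29, adjusted p = 0.373) and Ercc8 for middle minus low (+0.33 ± 0.14, adjusted p = 0.664) and high minus middle (−0.39 ± 0.14, adjusted p = 0.529). The test of any difference among the 4 groups called 0 of 30 (0.0902% of all probes), with a smallest adjusted p of 0.548.

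**Figure D4:**
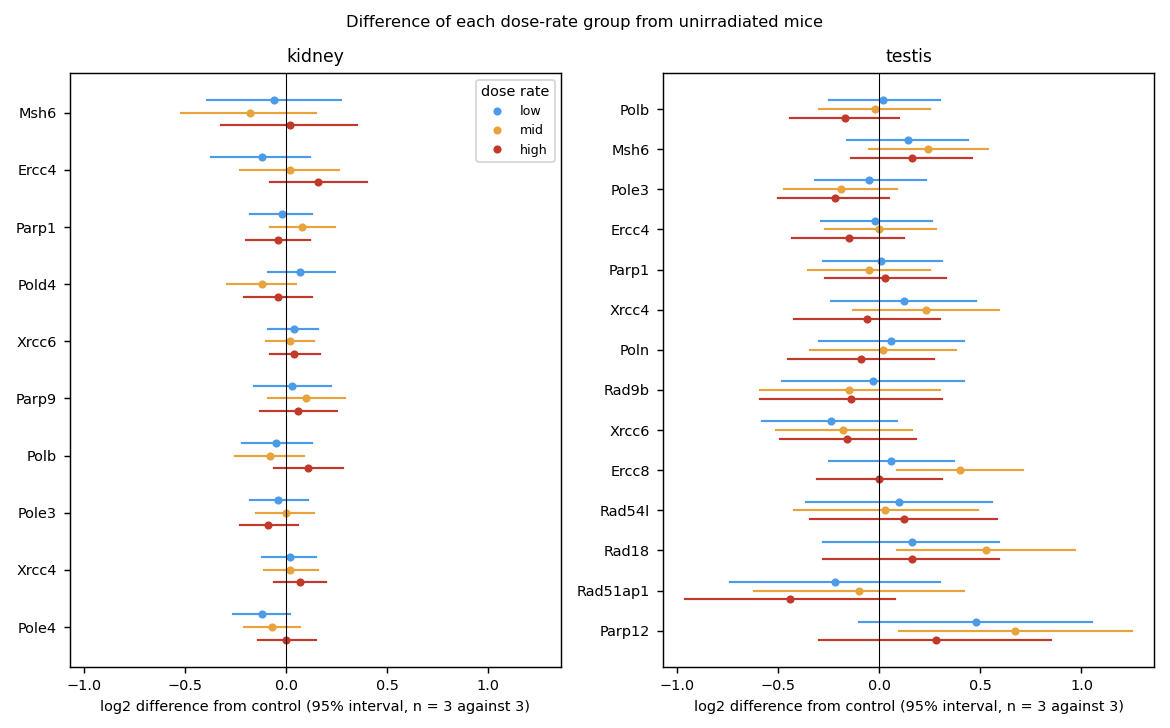
Log2 difference of each dose-rate group from control with its 95% interval (n = 3 against 3 arrays) for 10 members tested in kidney and 14 above background on all testis arrays. Most intervals span 0, and those of Ercc8, Rad18 and Parp12 in testis at the middle one do not, before adjustment for the number of probes tested.

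Whether a dose rate acted differently in the tissues was tested on the 9 members measured in both. None (0 of 9) passed at the low, middle or high dose rate, as did 0.0% of 8797 probes each time, and at an unadjusted p under 0.05 there were 0, 1 and 2 members against 5.77%, 8.43% and 13.1% of all probes. At the high dose rate Pold4 had a testis minus kidney difference of −0.69 ± 0.32 (adjusted p = 0.358).

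No gene of the pathway lists passed at any dose rate in either tissue. At the high dose rate the median difference in kidney was −0.05 over 3 genes of base excision, −0.10 over 5 of damage signalling, +0.03 over 6 of replication and +0.15 over 5 p53 targets (4 of 5 higher, smallest adjusted p 0.468). In testis it was −0.04 over 6, −0.02 over 9, +0.01 over 11 and −0.04 over 8 genes (smallest adjusted p 0.573 to 0.641). The median over all probes was 0.00 in both tissues. Of the meiotic recombination list only Mei1 was tested in testis. It was above background on all 3 middle dose rate arrays and no control array, with a difference of +2.48 ± 0.62 (adjusted p = 0.267). The size of that difference depends on the floor and is no measured fold: the 3 genes of the list with a probe had a mean log2 level of 4.22 in controls, with the lowest array at the floor (4.0). Among cell type markers, the widest kidney shift was in macrophage genes at the low dose rate, with 5 of 5 higher, a median of +0.71 and none called. In testis Prm2, the only germ cell marker tested, was at 15.90 in controls and 15.88 at the high dose rate. Leydig cell genes were lower for 4 of 4 at the low and middle dose rates (medians −0.44 and −0.36). At the high dose rate 2 of 4 were lower (median +0.08). Spermatogonial genes were lower for 2 of 2 at the low dose rate (median −0.61) and higher for 2 of 2 at the high one (+0.29). No testis marker was called at these dose rates.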

How the data were processed

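Kidney values were deposited as an intensity on a linear scale, background-subtracted and rank-invariant normalized by the authors in BeadStudio 1.5.0.34, per the file headers, with a detection score per probe, a fraction from 0 to 1. The deposited number of beads per probe (array medians 39 to 44) only describes the arrays. Testis intensity came from the deposited value table, of unstated normalization. A further 23 per-sample columns were not used. Probes were named by the zero-padded NCBI gene ID of the target identifier, found in the GRCm38.p6 gene table.

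All fits used limma 3.58.1 under R 4.3.3. The kidney signal went through neqc (offset 16), and 10903 probes with a score above 0.99 on at least 3 arrays were kept. Testis signals were floored at 16, put on a log2 scale and quantile normalized, and 28816 probes above their array median on at least 3 arrays were kept. The tissue fit used the value table with the same floor, quantile normalized within each tissue. It covered 18417 probes above background on at least 3 arrays of either tissue. Each fit held all groups, with no covariate. P-values are from limma's moderated test with Benjamini-Hochberg adjustment over all probes tested, two-sided, called under 0.05. The scripts were tested on simulated data.

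The text names members called in a comparison, the 3 higher and 3 lower with the lowest unadjusted p at each dose rate, the 10 largest called tissue differences in each direction, and members not above background anywhere; others are given for completeness of their role group. The values of 1 member, counted among the members, and 1 promoter are not reported here. The members and lists were chosen with earlier results of these data known. Labels do not say more of the replicates than that they are separate mice. Whether the kidney replicate numbers pair the arrays is not settled: deviations from group means correlated from −0.167 to 0.466 over 13 pairs with the same number (10 above 0.1, among them all 7 with a control array) and from −0.491 to 0.54 over 41 other pairs (11 above 0.1). The number as a block is given as an alternative. Alternatives covered the background step, scaling, filters, array weights, variance model and each array left out.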

Additional observations from a re-analysis of the deposited data

Results flagged for a closer look

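The 9 members measured in both tissues were looked at over 3 dose rates. For 2 of them every irradiated array of a group stood on opposite sides of its control mean in the 2 tissues. The share of all probes that did so was not counted. The difference between tissues was tested with limma's interaction contrast over 8797 probes. Xrcc6, the smaller Ku subunit, had a testis minus kidney difference of −0.35 ± 0.18 (SE) at the low dose rate (adjusted p = 0.857) and −0.28 ± 0.18 at the high dose rate (adjusted p = 0.532). Msh6, the mismatch binding subunit, had a difference of +0.40 ± 0.18 at the middle dose rate (adjusted p = 0.558). None of these 3 passed the threshold. With 3 arrays per group no test for a stray array was made.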

How the results depend on the processing

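Member counts were compared over 18 comparisons, in 312 pairs of a comparison and an alternative setting. Of these pairs 306 gave a count within 1.5 times the one reported. Outside the comparison of unirradiated tissues the reported count was 0, which only a count of 0 matches. Such a match says only that no member was called. In kidney, array weights gave 1 member called at the middle dose rate and 2 at the high one (among them Xrcc4), when 14.6% and 18.9% of all probes were called, and leaving out each array in turn gave 0 to 1 at the high dose rate, where 1 was called without the control array numbered 2. In testis, an unadjusted p under 0.05 with a 1.5-fold change, in place of adjustment, gave 1 member of 30 at the middle dose rate and 2 at the high one, against 5.93% and 6.57% of all probes. Between tissues, a fit of only the probes measured in both gave 9 called of 9 in place of 21 of 26, when 77.3% of all probes were called. Leaving out each control array gave 19 to 22 of 26, when 77.8% to 79.1% of all probes were called. With the kidney replicate block 0 members were called in every kidney comparison. The deviations of 7 of 12 arrays correlated best with an array of their own number. For 41 single-member values there were 695 pairs of a value and a setting, of which 686 kept their direction. The 9 reversals were of values near 0, except for Msh6 in kidney at the middle dose rate. Its reported difference of −0.18 was the lowest of the members there. The cause of the reversals was not tested. At the low dose rate Xrcc6 and Parp9 in kidney each went to −0.02 under median scaling. Without each array in turn they ran from −0.01 to 0.07 and from −0.02 to 0.08. Msh6 went to +0.05 at the middle dose rate with array weights, Xrcc4 there ran from −0.02 to 0.07 without each array in turn (−0.02 and −0.01 were the reversed values), and Parp1 at the high dose rate from −0.11 to 0.02, reversed without either of 2 arrays. Signal over background limits the dim members: their intervals are wide in testis and narrowed by the background step in kidney.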
